A study of Mus musculus with 9 samples.

Results

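The genes described here encode the subunits of the mitochondrial respiratory chain and of ATP synthase, the machinery of oxidative phosphorylation. They were selected by gene symbol from the deposited expression table, with patterns for the Nduf, Sdh, Uqcr, Cyc1, Cycs, Cox4 to Cox8 and Atp5 names. The patterns matched 87 of the 24421 symbols: 36 for complex I, 4 for complex II, 9 for complex III, 1 for cytochrome c, 19 for complex IV and 15 for complex V. The other 3 matched by name alone and are not counted with a complex: Cox7a2l, an organiser of respiratory supercomplexes, Atp5s and Atp5sl. Ndufa4, once listed with complex I, is counted with complex IV, to which it is now assigned. Of the 87, 80 reached at least 1 TPM (transcripts per 1000000) in at least 3 libraries and were tested. The 13 subunits encoded in mitochondrial DNA are not analysed here.

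Complexes I and II pass electrons from NADH and succinate to ubiquinone. Complex III hands them to the small carrier cytochrome c, and complex IV reduces oxygen with them. Complexes I, III and IV pump protons across the inner mitochondrial membrane, and complex V, the ATP synthase, uses the resulting gradient to make ATP. In the colon, surface absorptive cells are known to oxidise bacterial butyrate in their mitochondria. A greater reliance on glycolysis has been proposed for cells at the crypt base, but use of either pathway was not measured here.

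The study measured poly(A) RNA by sequencing in 3 populations of epithelial cells sorted from the colon of adult, wild-type female C57BL/6J mice, with 3 libraries each. The Epcam+/Cd44+/Kit-neg gate is labelled as enriched in Lgr5+ columnar stem cells of the crypt base and the Epcam+/Cd44+/Kit+ gate as enriched in goblet cells of the lower crypt. The Epcam+/Cd44-neg/Cd66a-high gate is labelled as enriched in enterocytes. Dead cells, doublets and cells positive for Cd3, Cd16/Cd32, Cd31 or Cd45 had been gated out. No animal carried a transgene or received a treatment according to the labels, and the series text can be read as 9 or as 3 animals, so the p-values measure the spread between these libraries.

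The libraries held 11.2 to 26.8 M reads (M stands for 1000000) in genes, the most in Lgr5-enriched replicate 1. That library also had 49046 TPM of the ribosomal RNA gene Rn45s, against 2356 to 6009 TPM in the other 8 libraries, and its part was not tested. The library labelled enterocyte-enriched replicate 1 went against its female label: it had 0.13 TPM of Xist, against 110.3 to 203.7 TPM in the other 8 libraries, and 138.6 TPM summed over 4 Y-linked genes, against at most 0.32 TPM. The member counts are therefore given with and without it. The markers largely followed the gates. Summed over 8 stem cell genes the level was 1222 to 1441 TPM in the Lgr5-enriched, 628.3 to 693.4 TPM in the goblet-enriched and 152.5 to 250.8 TPM in the enterocyte-enriched libraries. Over 10 colonocyte genes it was 310.1 to 516.5, 576.0 to 1138 and 6641 to 13781 TPM, and over 10 goblet genes 1569 to 1765, 49075 to 65032 and 15547 to 23177 TPM. The enterocyte-enriched libraries thus held goblet transcripts as well: all 10 goblet genes were called higher there than in the Lgr5-enriched libraries, and the part of these transcripts in the results was not tested. In the same order of populations, 8 enteroendocrine genes summed to 157.4 to 298.3, 13.1 to 79.7 and 149.2 to 239.3 TPM. For 7 tuft cell genes the sums were 1.98 to 5.85, 7.94 to 52.8 and 3.10 to 7.10 TPM. The part of these cells was not tested. The sums of 8 leukocyte genes were 2.99 to 17.5, 4.17 to 16.2 and 15.8 to 242 TPM. Among them, Cd3e and Cd79a stayed below 1 TPM everywhere. Lyz2 stood at 232.4, 132.9 and 12.86 TPM in the enterocyte-enriched libraries and at most 12.69 TPM elsewhere, and its part was not tested. Stromal and endothelial genes summed to at most 5.40 TPM in any library. The 10 muscle and pericyte markers summed to 14.6 to 26.2 TPM in the Lgr5-enriched, 37.9 to 41.8 TPM in the goblet-enriched and 21.5 to 31.9 TPM in the enterocyte-enriched libraries. Of these markers Rgs5, Cspg4, Kcnj8, Abcc9, Myh11, Des and Cnn1 were below 1 TPM throughout.

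Respiratory chain transcripts were most abundant in the enterocyte-enriched and least abundant in the goblet-enriched cells. Together the members made up 4.84 to 5.04% of all TPM in the enterocyte-enriched libraries, 3.59 to 3.75% in the Lgr5-enriched libraries and 2.88 to 2.98% in the goblet-enriched libraries. Between enterocyte-enriched and goblet-enriched cells, 71 of the 80 tested members rose and 1, Ndufa4, fell, with a median log2 change of 0.75 (limma on log2(TPM + 1), adjusted p below 0.05). Over all 12888 genes tested, 15.9% were called higher and 28.2% lower in that comparison, and the median change was -0.20. Of the 71 rises, 60 were called under each of the 19 alternative settings.

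Against the Lgr5-enriched cells the enterocyte-enriched cells had 40 members higher and 2 lower, Ndufa4 and Cox6b2, with a median log2 change of 0.40. Of all genes, 12.0% were called higher and 37.6% lower, and the median was -0.35. The goblet-enriched cells had 31 members lower than the Lgr5-enriched cells and 1 higher, Cox7a1, with a median of -0.35. Here 23.6% of all genes were called lower and 10.7% higher, with a median of -0.26, against 38.8% and 1.25% of the tested members. The 3 comparisons share populations in pairs and are not independent of each other. In bulk samples, fewer cells of a type and less RNA per cell cannot be told apart.

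The size of these differences depended on the scaling. TPM gives each gene as a share of its library. A rescaling without the most abundant genes gave medians of all genes of -0.19 for goblet-enriched and -0.28 for enterocyte-enriched against Lgr5-enriched cells. The part of abundant transcripts in the shifts was not tested. When the TPM values were rescaled by median of ratios, the median of all genes moved to -0.05 for goblet-enriched and 0.02 for enterocyte-enriched against Lgr5-enriched cells, and to -0.04 between enterocyte-enriched and goblet-enriched cells. The rises against goblet-enriched cells were then 74 with 1 fall, beside 21.2% and 20.0% of all genes. Against Lgr5-enriched cells, 71 members were then called higher in the enterocyte-enriched cells and 1, Cox6b2, lower, beside 23.4% and 19.6% of all genes. In the goblet-enriched cells, 7 of the 80 were called lower and 3 higher, where 12.1% of all genes were called lower and 14.4% higher under this scaling. Among the 7 were Sdha, Sdhb, Cyc1, Uqcrc1 and Cox6b2, and the same 7 were called lower under each of the 19 alternatives. The 3 were Cox7a1, Cox8a and Ndufa4. Single libraries also mattered. The count of members lower in goblet-enriched cells dropped to 14 when Lgr5-enriched replicate 3 was left out and to 14 when goblet-enriched replicate 2 was. Over all 12888 genes that count dropped too, from 3039 to 1571 and to 2106. The count of members higher in enterocyte-enriched than in Lgr5-enriched cells was 25 without enterocyte-enriched replicate 2, where that of all genes went from 1549 to 1290. Without enterocyte-enriched replicate 1, the library that went against its label, 33 members were lower in goblet-enriched cells, and 34 and 69 were higher in enterocyte-enriched than in Lgr5-enriched and goblet-enriched cells. The matching counts over all 12888 genes were then 3189, 1258 and 1753, against 3039, 1549 and 2054 with all libraries.

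**Figure D1:**
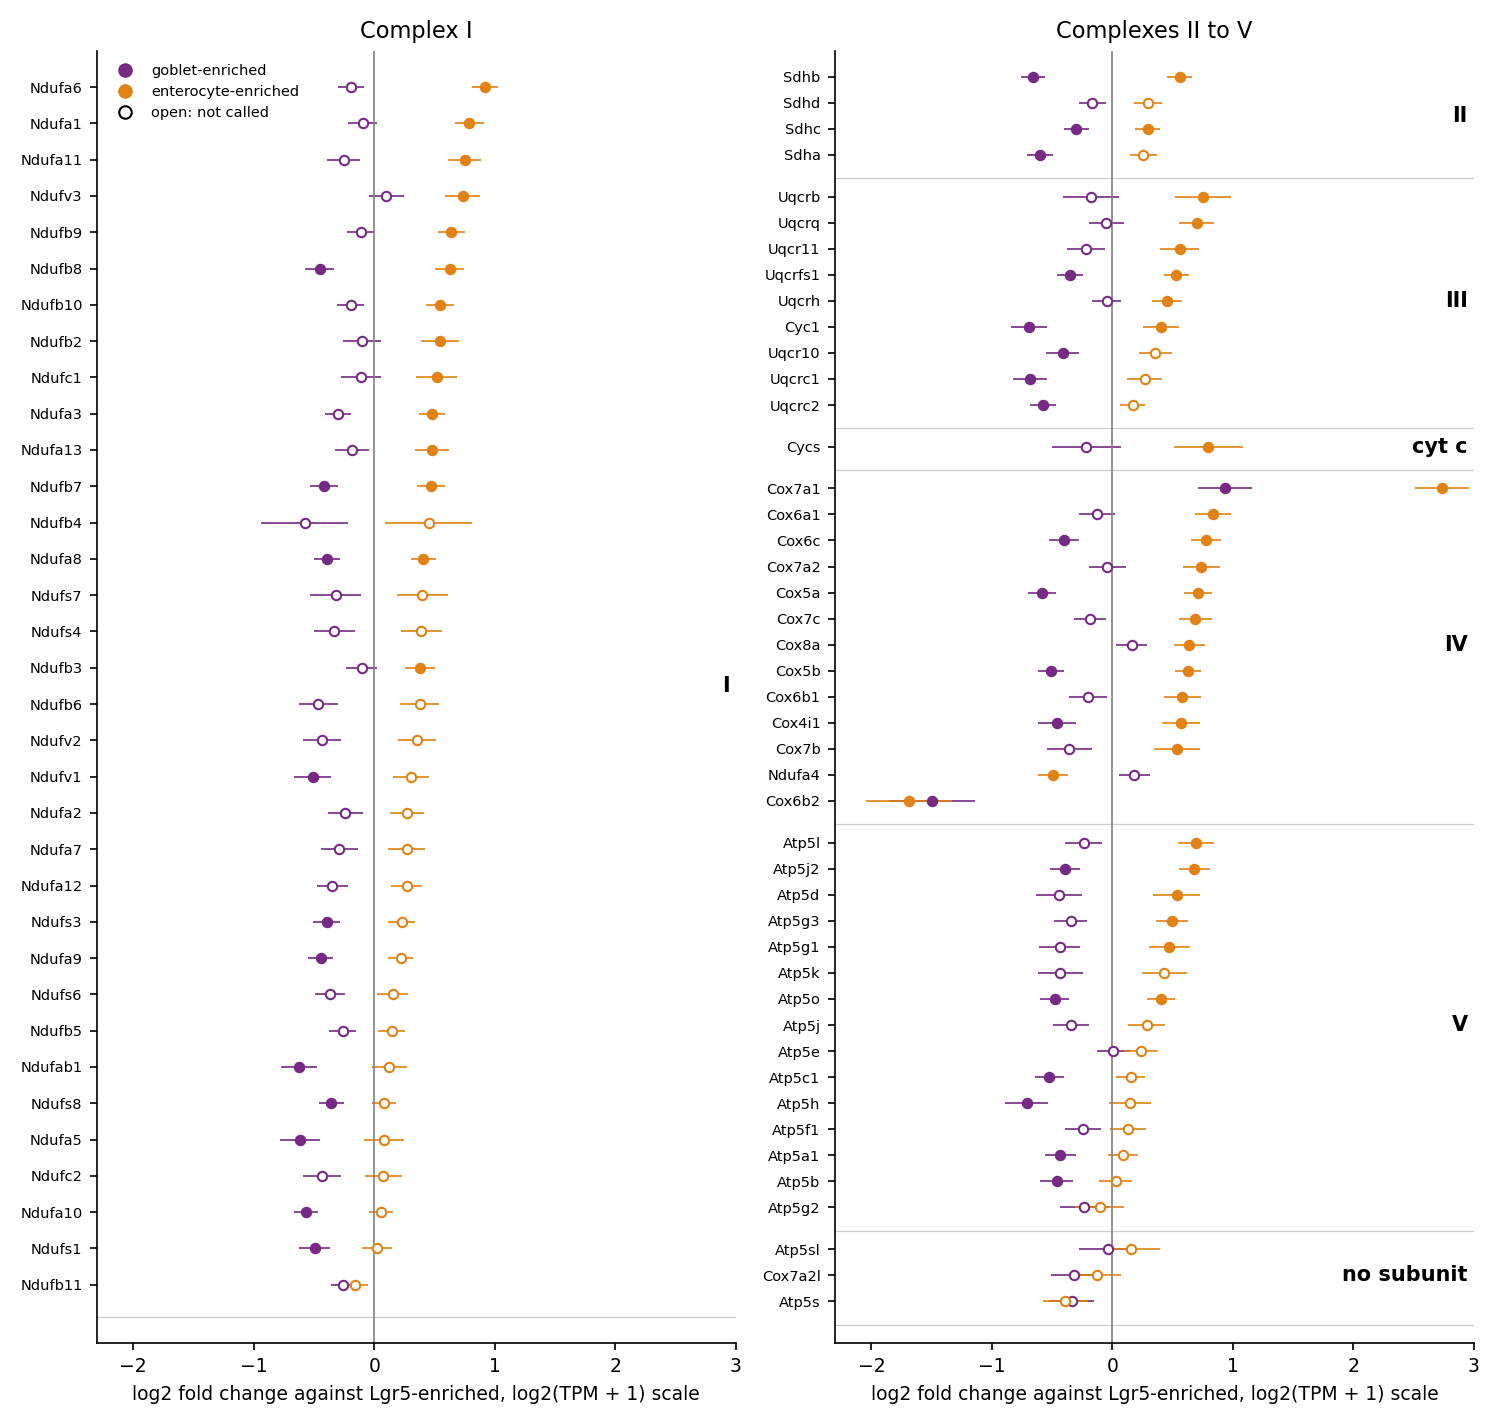
Log2 fold change of the tested members drawn against the Lgr5-enriched cells, on the log2(TPM + 1) scale, for goblet-enriched (purple) and enterocyte-enriched (orange) cells; points are limma estimates, bars are their standard errors, and filled points passed an adjusted p of 0.05. Nearly every orange point lies to the right of its purple point; Ndufa4, Cox6b2 and Atp5s are the exceptions, and Cox7a1 lies farthest right.

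The promoters of the members were searched for 4 short sequence motifs, which the choice by name did not use. RefSeq promoter windows (GRCm38.p6, 250 bases before to 50 after each start) were matched for 68 of the 80 tested members, 74 windows in all. Both strands were searched for CCGGAAG, the core bound by ETS factors such as GABP, GCGCATG, a half-site of NRF1, AAGATGG, the core bound by YY1, and AAGGTCA, a half-site of ERR receptors. These factors are known regulators of nuclear genes for mitochondria. The ETS core was found in 21.6% of the member windows and in 8.86% of all 32851 windows, and the NRF1 half-site in 18.9% and 3.91%. The YY1 core was found in 17.6% and 6.34%, and the ERR half-site in 9.46% and 4.72%. At least 1 of the 4 stood in 51.4% of the member windows and in 21.6% of all windows. The 32851 windows were not limited to genes expressed in these cells, nor matched to the members in their share of G and C bases. Whether the excess is particular to the members was not tested. These matches are a description of letters and were not tested as binding sites.

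Shown are the 250 bases before the start, 5′ to 3′ on the strand of the gene, for 3 members that rose in the enterocyte-enriched cells and hold matches there (Cox6a1, Sdhb, Atp5l) and for the 2 complex IV members whose pattern departed farthest from the rest among those with substantial levels (Cox7a1, Ndufa4), which hold none of the 4. Capitals mark matches on either strand, and overlapping matches run together.
Cox6a1, chr5:115348959-115349208, minus strand: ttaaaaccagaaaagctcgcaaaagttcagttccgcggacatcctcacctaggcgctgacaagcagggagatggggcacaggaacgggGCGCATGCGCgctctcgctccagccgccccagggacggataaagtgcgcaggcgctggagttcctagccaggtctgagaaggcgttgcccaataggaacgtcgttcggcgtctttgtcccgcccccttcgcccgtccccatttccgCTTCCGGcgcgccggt
Sdhb, chr4:140961021-140961270, plus strand: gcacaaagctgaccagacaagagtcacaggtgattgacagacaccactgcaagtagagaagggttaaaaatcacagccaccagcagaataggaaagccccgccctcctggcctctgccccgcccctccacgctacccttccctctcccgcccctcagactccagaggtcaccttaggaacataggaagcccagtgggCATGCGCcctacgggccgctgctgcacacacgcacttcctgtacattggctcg
Atp5l, chr9:44920743-44920992, minus strand: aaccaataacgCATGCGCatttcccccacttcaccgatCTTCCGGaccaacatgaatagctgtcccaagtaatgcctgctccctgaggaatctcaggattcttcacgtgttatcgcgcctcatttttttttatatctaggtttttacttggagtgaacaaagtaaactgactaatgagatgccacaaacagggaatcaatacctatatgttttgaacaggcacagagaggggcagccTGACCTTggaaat
Cox7a1, chr7:30183921-30184170, plus strand: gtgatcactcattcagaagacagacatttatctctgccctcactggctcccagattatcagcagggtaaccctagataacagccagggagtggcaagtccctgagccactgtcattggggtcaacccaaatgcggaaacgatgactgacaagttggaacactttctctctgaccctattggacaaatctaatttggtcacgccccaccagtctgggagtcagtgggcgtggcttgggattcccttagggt
Ndufa4, chr6:11907451-11907700, minus strand: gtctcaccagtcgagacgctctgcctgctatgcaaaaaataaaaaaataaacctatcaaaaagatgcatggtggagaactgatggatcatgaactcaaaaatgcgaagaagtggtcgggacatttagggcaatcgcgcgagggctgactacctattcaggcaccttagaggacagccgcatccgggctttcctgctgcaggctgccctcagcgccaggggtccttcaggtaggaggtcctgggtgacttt
Cox6a1 holds an ETS core and a pair of overlapping NRF1 half-sites, Sdhb an NRF1 half-site, and Atp5l an NRF1 half-site, an ETS core and an ERR half-site. These examples were picked for display. Of the 74 member windows 38 hold any of the 4 motifs, and members that rose, such as Cox5a, Ndufa1 and Uqcrfs1, hold none. A link between matches and direction of change was not tested.

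Complex I, the NADH dehydrogenase, had 36 members, of which Ndufs5 was listed at 0 in all libraries and could not be tested. Its 35 tested subunits summed to 8734, 8339 and 8673 TPM in the Lgr5-enriched, 6691, 6725 and 6967 TPM in the goblet-enriched and 10780, 11577 and 11165 TPM in the enterocyte-enriched libraries. The 3 ranges did not overlap. Against goblet-enriched cells, 34 of the 35 rose in enterocyte-enriched cells (median log2 change 0.70), and Ndufb11 alone was not called (0.10, adjusted p = 0.44). Against Lgr5-enriched cells 14 rose, and in goblet-enriched cells 12 fell.

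The largest rise in complex I was that of Ndufa6, an accessory subunit of the LYR family (chr15:82350139-82354291). Its level was 411.7, 411.8 and 411.6 TPM in the Lgr5-enriched, 364.2, 383.7 and 332.8 TPM in the goblet-enriched and 772.7, 805.4 and 758.5 TPM in the enterocyte-enriched libraries. The enterocyte-enriched libraries stood apart from the other 6. The log2 change was 0.92 ± 0.11 (SE) against Lgr5-enriched cells (adjusted p = 0.0003) and 1.11 ± 0.11 against goblet-enriched cells (adjusted p = 9.29e-05, limma). In all, 10 subunits of the complex had rises called under every alternative against Lgr5-enriched cells, among them Ndufa1 (0.79), Ndufa11 (0.75), Ndufv3 (0.73), Ndufb9 (0.64) and Ndufb8 (0.63).

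A set of 6 core subunits, from the conserved catalytic core and including Ndufv1, Ndufs1 and Ndufs8, was compared with the 28 accessory subunits after the values had been seen. None of the 6 was called higher in enterocyte-enriched than in Lgr5-enriched cells (median 0.27, range 0.02 to 0.40), against 14 of the 28 accessory subunits (median 0.40, range -0.16 to 0.92). With the replicate number as a block, 3 of the 6 and 17 of the 28 were called, Ndufv1 and Ndufs7 among the 3. After median-of-ratios scaling 6 of the 6 and 25 of the 28 were called, with medians of 0.68 and 0.81. The difference between these groups was not tested. These core subunits also have longer transcripts, with a median of 1317.5 bases against 638 bases. Between enterocyte-enriched and goblet-enriched cells, 6 of the 6 and 27 of the 28 rose. In goblet-enriched cells 4 of the 6 fell against Lgr5-enriched cells, among them Ndufv1 (-0.51), Ndufs1 (-0.50) and Ndufs8 (-0.36). These 3 falls were not called after median-of-ratios scaling. Ndufs1 overlaps Eef1b2 on the opposite strand, whose level reached a mean of 709 TPM, and whether reads were assigned by strand is not given in the sources used here.

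Complex II, succinate dehydrogenase, which also works in the citric acid cycle, has only 4 subunits, and all 4 were higher in enterocyte-enriched than in goblet-enriched cells. Sdhb, its iron-sulphur subunit (chr4:140961271-140979198), stood at 375.5, 403.1 and 396.4 TPM in the Lgr5-enriched, 244.1, 238.4 and 261.5 TPM in the goblet-enriched and 577.6, 590.6 and 564.5 TPM in the enterocyte-enriched libraries. No 2 populations overlapped. Sdhb fell by 0.66 ± 0.10 in goblet-enriched cells (adjusted p = 0.0017) and rose by 0.56 ± 0.10 in enterocyte-enriched cells (adjusted p = 0.0020) against Lgr5-enriched cells, and it differed by 1.22 ± 0.10 between the other two (adjusted p = 5.65e-05, limma). These 3 calls held under each of the 19 alternatives. Sdha, the flavoprotein with the active site, fell by 0.60 in goblet-enriched cells and rose by 0.86 from goblet-enriched to enterocyte-enriched cells. Its change of 0.26 against Lgr5-enriched cells was not called (adjusted p = 0.077), but it was called with the replicate block and after median-of-ratios scaling (0.67). Of the membrane anchors, Sdhc fell by 0.30 (adjusted p = 0.0497) and rose by 0.29 (adjusted p = 0.040) against Lgr5-enriched cells, and both calls were lost in at least 10 alternatives. Sdhd changed by -0.17 and 0.30, neither of them called, the latter called with the replicate block and after median-of-ratios scaling (0.71).

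Complex III, the cytochrome bc1 complex, rose in all 9 of its members from goblet-enriched to enterocyte-enriched cells (median 0.78), and these 9 calls held under each alternative. In goblet-enriched cells 5 fell against Lgr5-enriched cells, and in enterocyte-enriched cells 6 rose. Cyc1, the cytochrome c1 subunit that reduces cytochrome c (chr15:76343513-76346260), stood at 593.5, 605.9 and 676.7 TPM in the Lgr5-enriched, 314.7, 415.4 and 442.7 TPM in the goblet-enriched and 805.8, 867.5 and 810.8 TPM in the enterocyte-enriched libraries. The populations did not overlap. Cyc1 fell by 0.69 ± 0.15 in goblet-enriched cells (adjusted p = 0.0076), and its rise of 0.41 ± 0.15 in enterocyte-enriched cells passed narrowly (adjusted p = 0.046) and was lost in 9 of the 19 alternatives. Uqcrfs1, the Rieske iron-sulphur protein, rose by 0.53 (adjusted p = 0.0030), and this call held throughout. Uqcrc1 and Uqcrc2, the large core proteins, fell by 0.68 and 0.58 in goblet-enriched cells and were not called in enterocyte-enriched against Lgr5-enriched cells (0.27 and 0.17), although Uqcrc1 was with the replicate block. The fall of Uqcrc2 was not called after median-of-ratios scaling (-0.35, adjusted p = 0.051), while that of Uqcrc1 was. After that scaling both were called higher in enterocyte-enriched than in Lgr5-enriched cells (Uqcrc1 0.68, Uqcrc2 0.58), as were all 9 members.

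Uqcrb, a small ubiquinone-binding subunit, had the largest rise of the complex against Lgr5-enriched cells, 0.75 ± 0.23 (adjusted p = 0.025), and the widest spread. Its level was 599.8, 426.9 and 465.0 TPM in the Lgr5-enriched, 630.6, 332.6 and 391.3 TPM in the goblet-enriched and 896.6, 845.9 and 754.0 TPM in the enterocyte-enriched libraries, with replicate 1 highest in each population. The call was lost in 5 of the 19 alternatives, among them the one without enterocyte-enriched replicate 1. Cycs, the soluble electron carrier cytochrome c (chr6:50562563-50566569), showed the same feature: 72.1, 42.6 and 44.1 TPM in the Lgr5-enriched, 65.6, 34.3 and 38.1 TPM in the goblet-enriched and 113, 78.6 and 82.2 TPM in the enterocyte-enriched libraries. Its rise was 0.80 ± 0.28 against Lgr5-enriched (adjusted p = 0.042) and 1.01 ± 0.28 against goblet-enriched cells (adjusted p = 0.018), and without enterocyte-enriched replicate 1 it was not called in either comparison (0.64 and 0.85). In all, 7 and 3 of the 19 alternatives ended these calls.

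Complex IV, cytochrome c oxidase, showed the largest summed difference of the 5 complexes between enterocyte-enriched cells and either other population, and the smallest between goblet-enriched and Lgr5-enriched cells. Its members summed to 9048, 8714 and 8846 TPM in the Lgr5-enriched, 7786, 7494 and 7805 TPM in the goblet-enriched and 13479, 13984 and 13572 TPM in the enterocyte-enriched libraries. The enterocyte-enriched mean was 1.54 times the Lgr5-enriched mean and 1.78 times the goblet-enriched mean. The goblet-enriched mean was 0.868 times the Lgr5-enriched mean, and 1.01 times after median-of-ratios scaling. In enterocyte-enriched cells 11 of 13 tested members rose against Lgr5-enriched cells and 2 fell, and against goblet-enriched cells 11 rose and 1 fell. In goblet-enriched cells 5 fell and 1 rose.

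Cox5a, which with Cox5b flanks the catalytic core (chr9:57517328-57532427), stood at 868.4, 808.7 and 829.0 TPM in the Lgr5-enriched, 591.7, 519.1 and 563.8 TPM in the goblet-enriched and 1405, 1372 and 1334 TPM in the enterocyte-enriched libraries. The 3 populations were apart. Cox5a fell by 0.58 ± 0.12 in goblet-enriched cells (adjusted p = 0.0052; not called after median-of-ratios scaling, -0.36) and rose by 0.71 ± 0.12 in enterocyte-enriched cells (adjusted p = 0.0011). From goblet-enriched to enterocyte-enriched cells it rose 2.46-fold (log2 1.30 ± 0.12, adjusted p = 7.01e-05, limma). Cox5b moved likewise, by -0.51, 0.63 and 1.13, its fall too being lost after median-of-ratios scaling. Among the other subunits present in all tissues, Cox6a1 rose by 0.84, Cox6c by 0.78, Cox7a2 by 0.74 and Cox7c by 0.69 in enterocyte-enriched against Lgr5-enriched cells, each of them under every alternative. Cox8a rose by 0.64 there, and Cox4i1, the first nuclear subunit to join the core, by 0.57.

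The isoforms of complex IV went apart. Cox7a1, known as the heart and skeletal muscle isoform of subunit 7a (chr7:30184171-30186030), had 19.9, 38.9 and 28.1 TPM in the Lgr5-enriched, 48.4, 55.9 and 59.8 TPM in the goblet-enriched and 179, 228 and 173 TPM in the enterocyte-enriched libraries. The 3 populations did not overlap, in the order Lgr5-enriched, goblet-enriched, enterocyte-enriched. It rose 1.92-fold in goblet-enriched cells (log2 0.94 ± 0.22, adjusted p = 0.012) and 6.66-fold in enterocyte-enriched cells (log2 2.74 ± 0.22, adjusted p = 0.00013). The step from goblet-enriched to enterocyte-enriched cells was 3.48-fold (log2 1.80 ± 0.22, adjusted p = 0.0003, limma). These calls held under each of the 19 alternatives, and each library held at least 58 Cox7a1 reads. Cox7a2, the isoform of most tissues, remained the more abundant: 531.9, 373.7 and 394.4 TPM, then 467.0, 392.0 and 392.2 TPM, then 728.7, 725.0 and 691.1 TPM. Cox7a1 made up 6.56% ± 2.91 (SD, n = 3) of the summed Cox7a1 and Cox7a2 level in Lgr5-enriched, 11.7% ± 2.03 in goblet-enriched and 21.2% ± 2.32 in enterocyte-enriched cells. This share does not depend on how libraries are scaled to each other, and in it the Lgr5-enriched and goblet-enriched libraries overlapped narrowly (highest 9.43%, lowest 9.39%). The muscle markers Des, Myh11 and Cnn1 were below 1 TPM in every library. Tagln, another smooth muscle marker, was called higher than in Lgr5-enriched cells in both goblet-enriched (1.56) and enterocyte-enriched cells (0.69). It was lower in enterocyte-enriched than in goblet-enriched cells (-0.87). The part of muscle transcripts was not tested.

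Ndufa4 moved against the rest (chr6:11900372-11907450). Its level was 661.7, 605.0 and 583.2 TPM in the Lgr5-enriched, 765.5, 676.2 and 659.3 TPM in the goblet-enriched and 390.7, 467.2 and 458.9 TPM in the enterocyte-enriched libraries. The enterocyte-enriched libraries were below the other 6. It fell by 0.67 ± 0.13 from goblet-enriched to enterocyte-enriched cells (1.60-fold, adjusted p = 0.0028), the only member to fall there, under each of the 19 alternatives. Against Lgr5-enriched cells it fell by 0.49 ± 0.13 (adjusted p = 0.011), but after median-of-ratios scaling the change was -0.08 and not called. Per unit of Cox4i1, which is free of that scaling, Ndufa4 stood at 0.573, 0.416 and 0.403 in Lgr5-enriched, 0.901, 0.657 and 0.615 in goblet-enriched and 0.207, 0.220 and 0.233 in enterocyte-enriched libraries. The 3 ranges did not overlap. Cox4i1 itself changed, by 0.57 in enterocyte-enriched and by -0.46 in goblet-enriched against Lgr5-enriched cells. The ratio thus holds the change of Cox4i1 as well as that of Ndufa4.

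Cox6b2, known as the testis isoform of subunit 6b (chr7:4751792-4753094), was scarce and fell in both differentiated populations. It had 12.0, 15.4 and 17.5 TPM in the Lgr5-enriched, 1.99, 7.37 and 5.96 TPM in the goblet-enriched and 3.71, 3.29 and 4.80 TPM in the enterocyte-enriched libraries, and 7 to 77 reads in each. The Lgr5-enriched libraries were above the other 6. The fall was 1.50 ± 0.36 in goblet-enriched (2.83-fold, adjusted p = 0.012) and 1.69 ± 0.36 in enterocyte-enriched cells (3.23-fold, adjusted p = 0.0042, limma), called under each alternative. Cox6b1, the common isoform, provided 98.5%, 99.4% and 99.7% of the summed level of the pair in Lgr5-enriched, goblet-enriched and enterocyte-enriched cells, and rose by 0.58 in the last (adjusted p = 0.013). The remaining tissue isoforms were near or at the limit of detection: over all 9 libraries together Cox4i2 had 9 reads, Cox6a2 11, Ndufa4l2 7 and Cox8b 3, and Cox7b2 and Cox8c were listed at 0. They were not tested.

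**Figure D2:**
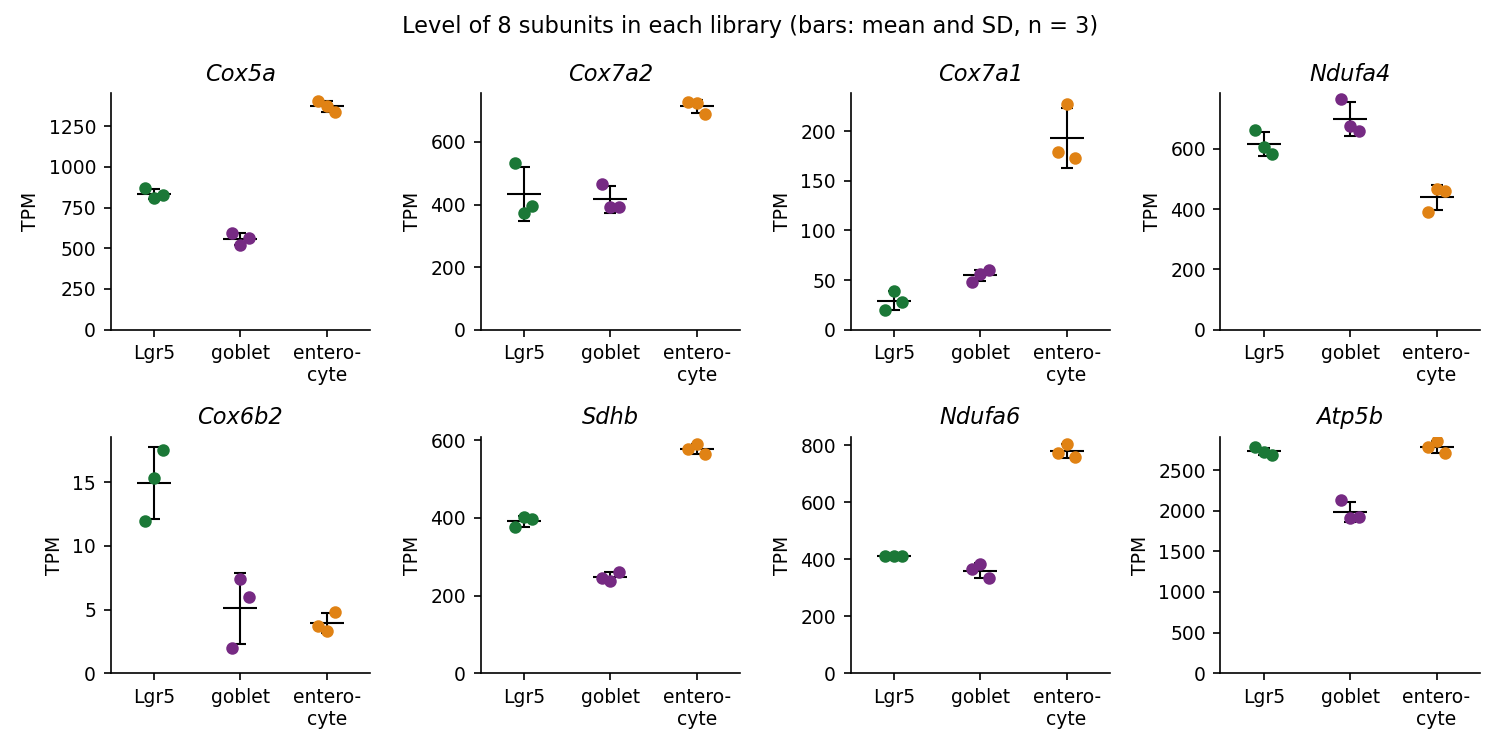
Level in TPM (linear axes from 0) of 8 subunits in the 9 libraries, by population; points are libraries, bars the mean and SD of 3 libraries. Cox5a, Sdhb, Cox7a2 and Ndufa6 are highest in the enterocyte-enriched libraries, Cox7a1 climbs through the 3 populations from 29.0 to 193 TPM in the mean, Ndufa4 is lowest in the enterocyte-enriched libraries, Cox6b2 is highest in the Lgr5-enriched ones, and Atp5b is low only in the goblet-enriched ones.

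Complex V, the ATP synthase, was the most abundant complex and the one with the smallest summed rise in enterocyte-enriched cells. It summed to 12488, 11758 and 11811 TPM in the Lgr5-enriched, 9198, 9016 and 9157 TPM in the goblet-enriched and 14428, 14722 and 14375 TPM in the enterocyte-enriched libraries, without overlap. Of 15 members, 12 rose from goblet-enriched to enterocyte-enriched cells (median 0.84), all but Atp5e, Atp5f1 and Atp5g2, of which Atp5f1 was called with the replicate block (0.37). Against Lgr5-enriched cells 6 rose in enterocyte-enriched and 6 fell in goblet-enriched cells, and none of the 6 falls was called after median-of-ratios scaling.

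Atp5b, the catalytic beta subunit and the most abundant of the members (chr10:128083307-128090388), stood at 2781, 2723 and 2692 TPM in the Lgr5-enriched, 2128, 1906 and 1928 TPM in the goblet-enriched and 2784, 2860 and 2710 TPM in the enterocyte-enriched libraries. The Lgr5-enriched and enterocyte-enriched libraries overlapped, with a change of 0.03 ± 0.14 (adjusted p = 0.88) that became 0.44 and was called after median-of-ratios scaling. The fall of 0.46 ± 0.14 in goblet-enriched cells (adjusted p = 0.029) was lost in 9 of the 19 alternatives. Atp5a1, the alpha subunit, and Atp5c1, the gamma subunit of the rotating shaft, were alike: they fell by 0.43 and 0.52 in goblet-enriched cells and changed by 0.09 and 0.15, not called, in enterocyte-enriched cells. After median-of-ratios scaling the changes in enterocyte-enriched cells became 0.50 and 0.56 and were called. The largest rises in enterocyte-enriched against Lgr5-enriched cells were those of the small membrane subunits Atp5l (0.70 ± 0.15, adjusted p = 0.0046) and Atp5j2 (0.68 ± 0.13, adjusted p = 0.0021), subunits g and f, both under every alternative. Atp5l stood at 206.5, 160.8 and 138.0 TPM, then 143.2, 151.0 and 128.6 TPM, then 264.8, 273.8 and 271.7 TPM. Its enterocyte-enriched libraries lay above the other 6. Atp5h, subunit d of the stator, had the largest fall in goblet-enriched cells (0.71 ± 0.18, adjusted p = 0.014).

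Subunit c, which forms the rotor ring, is encoded by 3 genes that give the same mature protein. Atp5g3 provided 71.7% ± 3.21 (SD, n = 3) of their summed level in Lgr5-enriched, 71.4% ± 3.89 in goblet-enriched and 75.4% ± 3.11 in enterocyte-enriched cells, so its share overlapped between all populations. Atp5g2 provided 14.0% ± 2.52, 15.1% ± 2.53 and 9.87% ± 2.55. In enterocyte-enriched against Lgr5-enriched cells Atp5g3 rose by 0.50 (adjusted p = 0.014), Atp5g1 by 0.47 (adjusted p = 0.043, lost in 9 of 19 alternatives), and Atp5g2 changed by -0.10 (adjusted p = 0.69). In goblet-enriched cells none of the 3 was called, and with the replicate block Atp5g1 and Atp5g3 were called lower (-0.44 and -0.35).

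**Figure D3:**
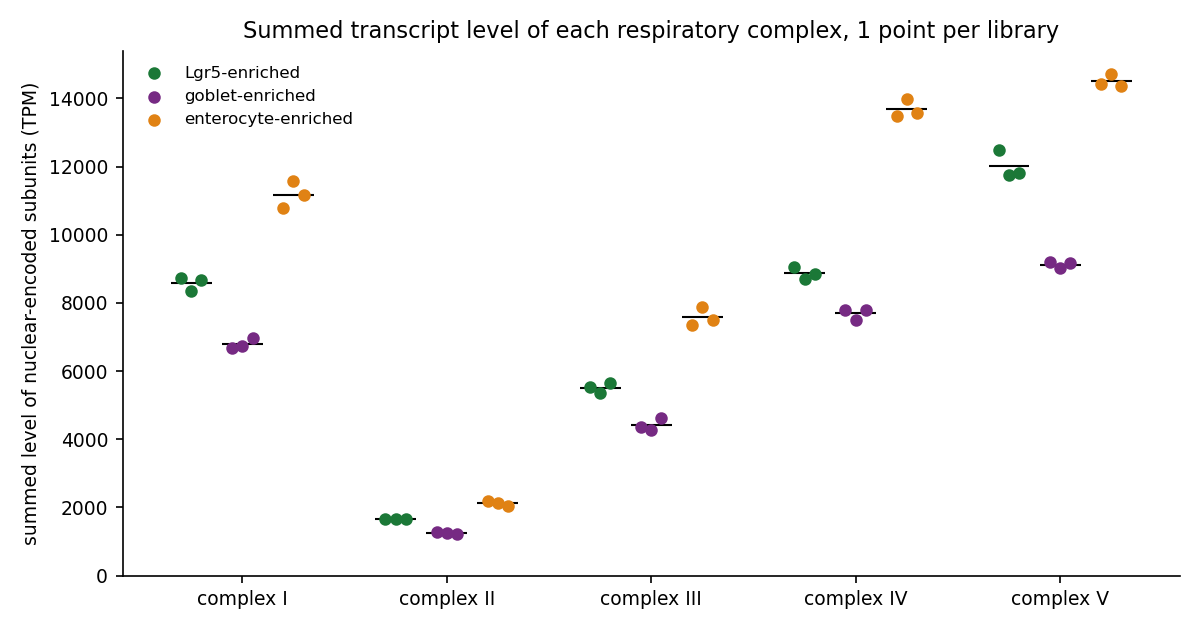
Summed TPM (linear axis from 0) of the nuclear-encoded subunits of each complex; each point is 1 library, and the black bar is the mean of the 3 libraries of a population. In each complex the goblet-enriched libraries are lowest and the enterocyte-enriched libraries highest, and complex IV shows the widest gap between these, relative to its level.

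The complexes therefore did not keep the same proportions. Relative to complex V in the same library, complex IV stood at 0.725, 0.741 and 0.749 in the Lgr5-enriched, 0.847, 0.831 and 0.852 in the goblet-enriched and 0.934, 0.950 and 0.944 in the enterocyte-enriched libraries. The 3 populations did not overlap in this ratio, which is free of the scaling between libraries. Complex III per complex V moved the same way, from 0.459 ± 0.0182 (SD, n = 3) through 0.485 ± 0.0179 to 0.522 ± 0.0121, with Lgr5-enriched and goblet-enriched libraries overlapping. Complex I per complex V was 0.714 ± 0.0180, 0.745 ± 0.0167 and 0.770 ± 0.0204, and neighbouring populations overlapped. Complex II per complex V was 0.138 ± 0.00510, 0.137 ± 0.00244 and 0.146 ± 0.00552. These ratios are a description without a test.

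Transcript length moved with part of the pattern. Across the 80 tested members, which share libraries and are not independent replicates, the log2 change of enterocyte-enriched against Lgr5-enriched cells had a Pearson r of -0.25 with log2 length, and the change of goblet-enriched cells one of -0.24. The 14 members of up to 500 bases had a median change of 0.53 in enterocyte-enriched cells, and the 6 members of 2000 to 4000 bases one of 0.21. Other genes of up to 500 bases had a median of -0.44 and those of 2000 to 4000 bases one of -0.34. In each length class the members' median in this comparison was above that of the other genes, also above that of other genes with a mean of at least 100 TPM. In goblet-enriched against Lgr5-enriched cells the classes went both ways: the members' median was -0.15 against -0.55 for other genes up to 500 bases, but -0.39 against -0.24 from 700 to 1000 bases and -0.36 against -0.25 from 1000 to 2000 bases. The part of length in the differences among members was not tested.

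**Figure D4:**
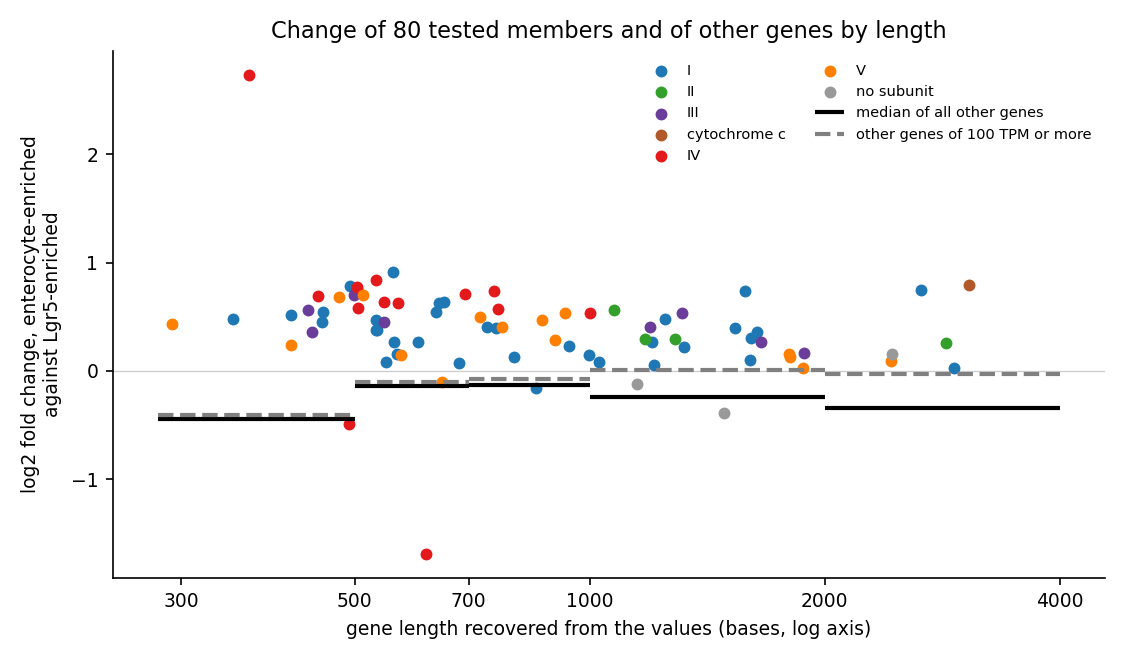
Log2 fold change of enterocyte-enriched against Lgr5-enriched cells for the 80 tested members (points, coloured by complex) against gene length in bases on a log axis; black lines are medians of all other genes in each length class and dashed grey lines medians of other genes with a mean of at least 100 TPM. Most points lie above both lines, and Ndufa4, Cox6b2, Ndufb11 and Atp5s lie below both.

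Assembly factors, which build the complexes without staying in them, gave mixed calls at the deposited scaling. Over all genes, 12.0% were called higher and 37.6% lower in enterocyte-enriched against Lgr5-enriched cells, and 10.7% and 23.6% in goblet-enriched cells. Between the differentiated populations the shares were 15.9% and 28.2%. After median-of-ratios scaling they were 23.4% and 19.6%, 14.4% and 12.1%, and 21.2% and 20.0%. The lists are short, and their counts were not tested against these shares. Of 15 tested assembly factors of complex I, 1 rose and 5 fell in enterocyte-enriched against Lgr5-enriched cells. Their median of -0.29 was near the -0.35 of all genes. In goblet-enriched cells 7 fell, and between the differentiated populations 3 rose and 1 fell. Ndufaf6 fell by 1.55 in goblet-enriched and by 1.06 in enterocyte-enriched cells, while Ndufaf3 rose by 0.45 in the latter. After median-of-ratios scaling 1 rose and 1, Ndufaf6, fell in enterocyte-enriched against Lgr5-enriched cells. Of 21 assembly factors of complex IV, 5 rose and 4 fell in enterocyte-enriched against Lgr5-enriched cells, 9 fell in goblet-enriched cells, and 6 rose and 1 fell between the differentiated populations. After median-of-ratios scaling 10 rose and 1, Lrpprc, fell in enterocyte-enriched against Lgr5-enriched cells, and 1 rose and 1 fell in goblet-enriched cells. Cox17, a copper chaperone, rose by 0.93 and Cox14 by 0.65, whereas Lrpprc, which stabilises mitochondrial mRNAs, fell by 0.88 in enterocyte-enriched and by 0.98 in goblet-enriched cells. Of 6 for complex III, 1 fell in enterocyte-enriched and 3 in goblet-enriched cells, led by Bcs1l, which inserts the Rieske protein (-0.76 and -0.73), and Uqcc2 rose between the differentiated populations (0.53). Of 4 for complex II, none was called in goblet-enriched cells, and Sdhaf3 fell by 0.80 in enterocyte-enriched cells, a call lost after median-of-ratios scaling. Atpif1, the inhibitor of ATP hydrolysis by complex V, stood at 291.0, 213.8 and 256.0 TPM in the Lgr5-enriched, 132.1, 102.2 and 122.3 TPM in the goblet-enriched and 209.7, 223.9 and 260.2 TPM in the enterocyte-enriched libraries. Only the goblet-enriched libraries were low: it fell by 1.08 there (adjusted p = 0.0011, limma) and its change of -0.13 in enterocyte-enriched cells was not called.

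Among 15 regulators of these genes, 2 rose and 9 fell in enterocyte-enriched against Lgr5-enriched cells, 3 fell in goblet-enriched cells, and 3 rose and 5 fell from goblet-enriched to enterocyte-enriched cells. After median-of-ratios scaling the counts were 4 and 4, then 0 and 0, then 3 and 3. The shares of all genes called higher and lower were 12.0% and 37.6%, then 10.7% and 23.6%, then 15.9% and 28.2%. After that scaling they were 23.4% and 19.6%, then 14.4% and 12.1%, then 21.2% and 20.0%. The 2 regulators that rose against Lgr5-enriched cells before rescaling were Ppargc1a and Esrra, which code for the coactivator PGC-1alpha and its partner receptor ERRalpha. Esrra had 76.7, 135.8 and 127.7 TPM in the Lgr5-enriched, 65.0, 98.0 and 87.5 TPM in the goblet-enriched and 220.4, 203.7 and 207.0 TPM in the enterocyte-enriched libraries, which were above the other 6. It rose by 0.93 against Lgr5-enriched (adjusted p = 0.0082) and by 1.34 against goblet-enriched cells (adjusted p = 0.0016). Ppargc1a rose by 1.16 and 0.87 in the same comparisons from a lower level, 24.0 to 30.7 TPM in enterocyte-enriched libraries against 8.51 to 20.4 TPM in the other 6. Ppargc1b rose by 1.53 against goblet-enriched cells, and its change of 0.66 against Lgr5-enriched cells (adjusted p = 0.13) was called with the replicate block, as was its change of -0.87 in goblet-enriched cells. Pprc1, the third coactivator of the family, fell by 1.92 and 1.91. Tfam, which packages and transcribes mitochondrial DNA, fell by 0.68 in goblet-enriched cells (not called after median-of-ratios scaling) and by 1.12 in enterocyte-enriched against Lgr5-enriched cells. Nrf1, Gabpa and Yy1, whose products bind the NRF1, ETS and YY1 motifs searched in the promoters, fell by 0.74, 1.04 and 0.80 in enterocyte-enriched against Lgr5-enriched cells, and none of these falls was called after median-of-ratios scaling.

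Other mitochondrial genes were divided as well. The shares over all genes were those given for the regulators, with 12.0% higher and 37.6% lower in enterocyte-enriched against Lgr5-enriched cells. In goblet-enriched cells they were 10.7% and 23.6%, and between the differentiated populations 15.9% and 28.2%. Of 12 genes often used as markers of mitochondrial mass, 4 rose and 5 fell in enterocyte-enriched against Lgr5-enriched cells and 7 fell in goblet-enriched cells. Between the differentiated populations 5 rose and 1 fell. After median-of-ratios scaling these counts were 5 and 3, then 0 and 3, then 7 and 1. Summed over the 12 genes, the level was 5195 to 5804 TPM in the Lgr5-enriched and 3957 to 4456 TPM in the goblet-enriched libraries. In the enterocyte-enriched libraries it was 6325 to 6914 TPM. The sums thus stood in the same order as those of the respiratory chain members, without overlap. Vdac3, an outer membrane channel, rose by 0.91 and 1.47 against Lgr5-enriched and goblet-enriched cells, whereas the chaperonin Hspd1 fell by 1.12 in goblet-enriched and by 1.63 in enterocyte-enriched cells. Slc25a4, an ADP/ATP carrier, fell in enterocyte-enriched cells by 1.77 against Lgr5-enriched and by 1.46 against goblet-enriched cells. Of 11 organisers of supercomplexes and the inner membrane, 3 rose and 4 fell in enterocyte-enriched against Lgr5-enriched cells, 6 fell in goblet-enriched cells, and 6 rose and 1 fell between the differentiated populations. After median-of-ratios scaling these counts were 5 and 2, then 4 falls, then 8 and 1. Higd1a, a hypoxia-induced partner of complex IV, rose by 1.23 and 1.49, and Chchd6, a subunit of the cristae junction complex, fell by 1.42 and 1.01. Phb, a prohibitin, fell by 1.05 in goblet-enriched cells. Of 10 hypoxia response genes 4 rose and 2 fell in enterocyte-enriched and 1 rose and 2 fell in goblet-enriched cells against Lgr5-enriched cells, and 3 rose and 2 fell between the differentiated populations. Cox7a2l, the supercomplex organiser matched by name, changed by -0.32, -0.13 and 0.19 in the 3 comparisons, none of them called, the first called with the replicate block, and Atp5s and Atp5sl were not called in any.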

How the data were processed

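Poly(A) RNA libraries were made with a stranded kit and sequenced on either of a pair of Illumina machines, per the labels' protocols. Not given in the sources used here are the machine of each library, the aligner and the use of strand in counting. The submitters' processing notes name Cufflinks and mm10. The authors deposited 1 table of log2 values for 24421 symbols and 9 libraries, whose lowest value of -1 and column sums show log2 of TPM with values below 1 shifted; TPM was taken as 2 to the power of the value, or the value plus 1 where it was negative, and summed to 1000000 in each library. No per-sample column was left unused (0). Low values were whole multiples of the worth of 1 read for 18386 of 18396 genes above 0 (99.95%, relative tolerance 1e-06), which gave the reads per gene, the depth and the smallest fitting gene length; intervals of reads cover counting error only.

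The 12888 genes that reached 1 TPM in 3 or more libraries entered limma 3.58.1 (R 4.3.3) as log2(TPM + 1), with trended variance, all 9 libraries, two-sided, Benjamini-Hochberg over all genes within a comparison, called below an adjusted p of 0.05. Fold changes on this scale understate low genes. The test was checked on simulated data. Summaries used Python 3.11.15, pandas 2.3.3 and numpy 2.4.6. Groups and replicate numbers came from the sample titles. Deviations of same-numbered libraries from their population means correlated at 0.19 to 0.60 in 9 of 9 pairs, against -0.52 to 0.17 in the 18 other pairs. Same-numbered libraries thus deviated together. The main fit has no block, and the fit with the replicate block is given where it changed a call. Xist stood at 150 and 110.3 TPM in Lgr5-enriched and goblet-enriched replicate 1 and at 0.13 TPM in enterocyte-enriched replicate 1. The libraries numbered 1 thus cannot all come from 1 animal as labelled.

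The members and gene lists were chosen with earlier results of these data known. Named were, in each complex and comparison, the called members with the largest rise and fall, isoform families, catalytic or electron-carrying subunits, and the largest called rise and fall of each other list; further members named by their size of change or level, and AA467197, were chosen after values were seen. Alternatives were pseudocounts of 0.1 and 5 TPM, no filter, median-of-ratios scaling, quantile normalization, the block, only the 6 libraries compared, each library left out, all libraries numbered 1 left out and, chosen after seeing the data, limma-voom on recovered reads and rescaling without the members, Rn45s and genes averaging over 3000 TPM. Reads of members with near-identical pseudogenes may have been split, and their levels are uncertain to that extent. Gene coordinates and promoters are from RefSeq GRCm38.p6, matched by symbol. Some genes of the lists are not reported here by name; counts over all members include them, and the set of core subunits of complex I was taken without them.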

Additional observations from a re-analysis of the deposited data

How the results depend on the processing

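Members lower in goblet-enriched than in Lgr5-enriched cells numbered 31, and 7 after median-of-ratios scaling, 18 after rescaling without the most abundant genes and 14 to 33 when 1 library was left out; members higher there numbered 1, and 3 after median-of-ratios scaling. Members higher in enterocyte-enriched than in Lgr5-enriched cells numbered 40, and 71 after median-of-ratios scaling and 25 to 45 with 1 library left out; those lower numbered 2, and 1 after that scaling. In enterocyte-enriched against goblet-enriched cells the 71 higher ranged from 63 to 71 with 1 library left out, and were 74 after median-of-ratios scaling, 66 after quantile normalization and 72 with limma-voom on recovered reads. The counts over all 12888 genes moved as well. With 1 library left out they were 1571 to 3189, 1230 to 1661 and 1702 to 2184 for the main direction of these comparisons. With all libraries they were 3039, 1549 and 2054.

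With the replicate block, 45 members were lower in goblet-enriched cells, 52 higher in enterocyte-enriched than in Lgr5-enriched and 72 higher than in goblet-enriched cells, while the shares over all genes rose too, to 35.4%, 15.9% and 20.6%. The block ended none of the calls of members named in the report.

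After median-of-ratios scaling the ratios of summed TPM for complexes I, II, III, IV and V, which at the deposited scaling were 0.792, 0.756, 0.802, 0.868 and 0.759 in goblet-enriched against Lgr5-enriched cells, became 0.924, 0.883, 0.937, 1.01 and 0.885, so that complex IV changed direction. In enterocyte-enriched against Lgr5-enriched cells 1.30, 1.28, 1.37, 1.54 and 1.21 became 1.73, 1.70, 1.83, 2.05 and 1.60, and against goblet-enriched cells 1.64, 1.69, 1.71, 1.78 and 1.59 became 1.87, 1.93, 1.95, 2.03 and 1.81. With 1 library left out, the ratios of the 5 complexes at the deposited scaling ran from 0.747 to 0.879 in goblet-enriched against Lgr5-enriched cells. In enterocyte-enriched cells they ran from 1.19 to 1.56 against Lgr5-enriched and from 1.58 to 1.79 against goblet-enriched cells. Leaving out 1 of 3 libraries can move a mean only to a limited extent, so these ranges are no test of stability.

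Of 2166 tests of 38 named genes under the alternatives, 1965 kept their call or their lack of one. A call was lost in 163, gained in 38 and reversed in 0. Estimates that were not called could change sign. Atp5g2, for example, went from -0.10 to 0.31 in enterocyte-enriched against Lgr5-enriched cells after median-of-ratios scaling. The cause of these shifts was not tested. With 3 libraries a group, 6 residual degrees of freedom and 7 reads for the scarcest tested member in a library, the precision for small changes is limited.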

Other observations

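AA467197 (Nmes1), a paralogue of Ndufa4 that is known to take its place in complex IV, does not match the name patterns and was looked at after its values were seen. It stood at 167.9, 126.3 and 138.1 TPM in the Lgr5-enriched, 70.4, 26.3 and 76.2 TPM in the goblet-enriched and 714.8, 368.0 and 471.5 TPM in the enterocyte-enriched libraries. The populations did not overlap. It rose 3.47-fold against Lgr5-enriched cells (log2 1.79 ± 0.39, adjusted p = 0.0046) and 9.39-fold against goblet-enriched cells (log2 3.23 ± 0.39, adjusted p = 0.00026, limma). In goblet-enriched cells it fell by 1.44 ± 0.39 (adjusted p = 0.020), which was not called after median-of-ratios scaling (-1.21). Per Ndufa4 transcript it stood at 0.254, 0.209 and 0.237 in Lgr5-enriched, 0.0920, 0.0390 and 0.116 in goblet-enriched and 1.83, 0.788 and 1.03 in enterocyte-enriched libraries, so that the paralogues were near the same level in the last and Ndufa4 was several times the more abundant elsewhere. The highest value was that of enterocyte-enriched replicate 1, the library that went against its label.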
